A study of Oryza sativa Japonica Group with 18 samples.

Results

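The loss of PHO2 was followed in rice root and shoot, and the quantity described here is the tissue difference of that effect: the log2 change of pho2 against wild type (WT) in root less the same change in shoot. It was taken over the 12 arrays of pho2 and WT among the 18 of the series, with 3 arrays in each of 4 groups, and it was tested for 34355 of 57381 probe sets. A positive value means that the transcript was raised more, or lowered less, in pho2 root than in pho2 shoot. The members are therefore all probe sets tested, and the genes named are those with the highest and lowest values, those that moved in opposite directions, and members of gene lists. Of the 86 named genes that were called, 27 had another probe set tested: every other one was called in the same direction for 12 genes, at least 1 was not called for 14, and 1 was called in the opposite direction for PHT1;1. The 14 are AMT1, BURP2, CAB2R, CDKG-2, CESA1, CKX11, GLO1, HSF6, NRAMP4, PHR2, PSAG, ROMT-17, SPX4 and Trxh1. Some named genes were measured on probe sets of types that may also bind related transcripts. They are AKT1, BURP2, CH6, HSP26.2, LEA19, MCM9, NSHB1, PHT1;3, PHT1;4, PHT1;8, RAB21, RPL9, SPX4, SPX5 and TPP7.

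The WT plants were of the cultivar Nipponbare, and the pho2 and gi knockouts are labelled as being in the same background, with no description of the mutant alleles or of the number of lines. All groups were grown alike, with 2 days of germination in water and 19 days in hydroponic medium with sufficient phosphate (Pi) under a 12 h photoperiod, and roots or shoots were taken at 21 days. The 6 gi arrays enter below only as an outside reference. Neither the source of the replicates (separate plants, cultures or repeats of 1 extract) nor the hour of harvest is given in the labels. The p-values thus reflect the scatter of these samples alone, and that scatter may be technical. Because root and shoot are mixtures of cells, fewer cells of a type and less RNA per cell cannot be told apart in any of these values. PHO2 carries no name in the gene tables used here, and the pho2 label was not checked through its transcript.

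PHO2 is a ubiquitin-conjugating enzyme that marks Pi transporters and the Pi exporter PHO1 for breakdown, and plants without it take up Pi and load it into the xylem beyond need. Pi then collects in the shoot. Root and shoot thus stand at different ends of the same defect: PHR transcription factors raise Pi uptake genes when Pi is scarce, and SPX proteins restrain PHR factors when Pi is plentiful. GIGANTEA (GI) links the circadian clock to the control of flowering.

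The arrays of root and shoot differed in ways beyond tissue. Every deposited array had the same trimmed mean signal of 500.1 units. The mean log2 signal of 35 probe sets for RNA controls added to the samples was 9.16 to 9.24 on the WT root arrays and 9.16 to 9.43 on the pho2 root arrays, but 9.77 to 9.89 on the WT shoot arrays and 9.17 to 9.39 on the pho2 shoot arrays. A bacterial hybridisation control, BioB-3, gave 919 to 1024 units on the WT shoot arrays and 592 to 656 on the pho2 shoot arrays. On the root arrays it gave 31.9 to 38.6 in WT and 15.5 to 34.6 in pho2. The 3'/5' log2 ratio of GAPDH, a measure that shifts with RNA quality, was 0.55 higher in pho2 than in WT in root and 0.72 lower in shoot (-0.72), a tissue difference of 1.26, whereas the ratios of actin and cyclophilin gave tissue differences of -0.37 and -0.35. When arrays were scaled on the added controls, an alternative chosen after seeing the data, the median tissue difference of all probe sets moved from 0.01 to -0.67, the median root change to -0.09 and the median shoot change to 0.57. Every tissue difference below is relative to the deposited scaling. On the added-control scale a positive tissue difference under 0.68 turns negative, and a fall in shoot by less than 0.57 turns into a rise. Among genes described below as falling in shoot, the latter applies to PHT1;1, SPX4, PHR2, GLN1;2, PRR95, LHY, PRR37, GI, HO1, HSF12, PSAG, CYP99A3 and CDKG-2. Larger falls in shoot, such as those of SPX1 (-0.757) and Trx03 (-0.601), shrink by 0.57 on that scale. Whether the controls or the trimmed mean give the truer scale was not tested.

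**Figure D1:**
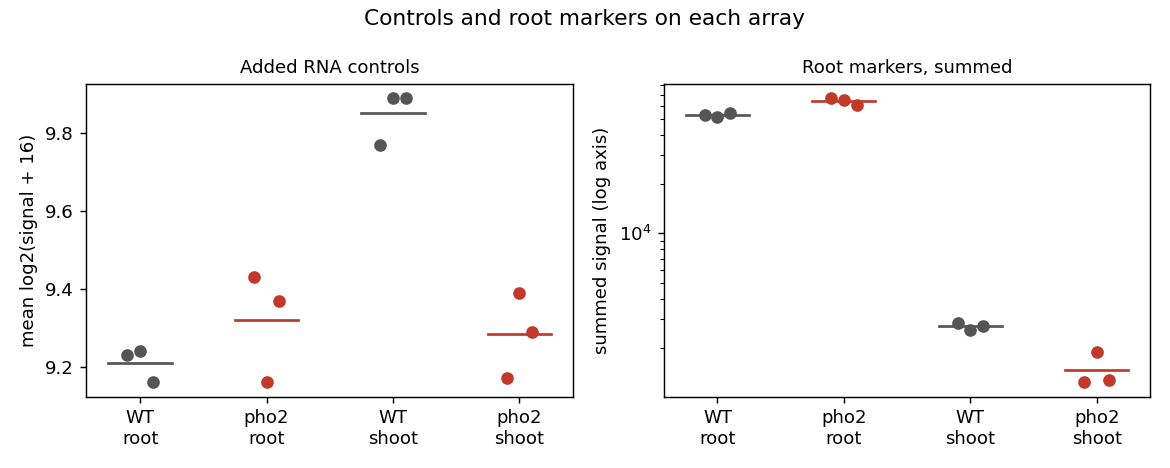
Mean log2(signal + 16) of the 35 added RNA control probe sets (left) and the summed signal of 8 root marker genes (right, log axis) on each array, with lines at group means. The WT shoot arrays stand above the other 9 in the added controls, and the pho2 shoot arrays (1232 to 1878 units) lie below the WT shoot arrays (2566 to 2842) in root markers.

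The tissue labels were borne out by marker genes. The summed signal of 6 shoot markers, among them RBCS, the small subunit of Rubisco, was 79573 to 130181 units in shoot and 6654 to 12592 in root, and most of the root signal came from CAB2R, a light-harvesting protein (6083 to 11538). The summed signal of 8 root markers was 51239 to 67111 units in root. In shoot it was 2566 to 2842 in WT and 1232 to 1878 in pho2. Some defining root markers were near 0 or dim in both shoot groups, with Lsi2, a silicon exporter, at 1.97 to 2.65 units in WT and 2.75 to 11.2 in pho2, and CASP1, of the Casparian strip, at 3.91 to 33.6 in WT and 17.0 to 75.1 in pho2. The tonoplast aquaporin TIP2 lay at 23.0 to 56.8 units in WT shoot and at 48.3 to 569 in pho2 shoot.

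The response to the loss of PHO2 differed between the organs for a large share of transcripts. The tissue difference was called for 10307 probe sets (30.0% of those tested), 4969 higher in root than in shoot (14.5%) and 5338 lower (15.5%), and 4252 of them (12.4%) differed by at least 2-fold, 1632 higher (4.75%) and 2620 lower (7.63%). Called means a limma adjusted p under 0.05, by the method of Benjamini and Hochberg over all probe sets tested. The shoot carried most of it: 11440 probe sets (33.3%) were called in pho2 shoot, where 6113 rose (17.8%) and 5327 fell (15.5%), and 3908 (11.4%) in pho2 root, where 2084 rose (6.07%) and 1824 fell (5.31%). Of the 10307, the effect was called in shoot alone for 3488 that rose there and 2914 that fell there, in root alone for 639 that rose and 546 that fell, and in neither tissue for 1006. Another 72 rose and 45 fell in both tissues but by unequal amounts. Across the 34355 probe sets the root and shoot changes had a Pearson's r of 0.000452, given as a description since genes are not independent replicates, and their SDs were 0.43 in root and 0.70 in shoot. The count in root was 2405, 2349 and 2596 without WT root replicate 1, WT root replicate 2 or pho2 root replicate 3.

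Most transcripts that changed in both organs changed in opposite directions. Of 2146 probe sets called in both tissues, 1597 (74.4%) had opposite signs and 549 the same sign. All 1597 were also called for the tissue difference, and they are 4.65% of the probe sets tested. They divide into 817 that rose in root and fell in shoot (2.38%) and 780 that fell in root and rose in shoot (2.27%). In 1563 of them (4.55%) the 3 pho2 arrays lay apart from the 3 WT arrays in each tissue. The share of opposite signs was 74%, 69.4% and 76.7% under quantile normalization, median centring and added-control scaling. The division did not hold under added-control scaling, where 73 rose in root and fell in shoot and 1195 did the reverse. The total was 1028 without WT root replicate 1 and 946 without WT root replicate 2.

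**Figure D2:**
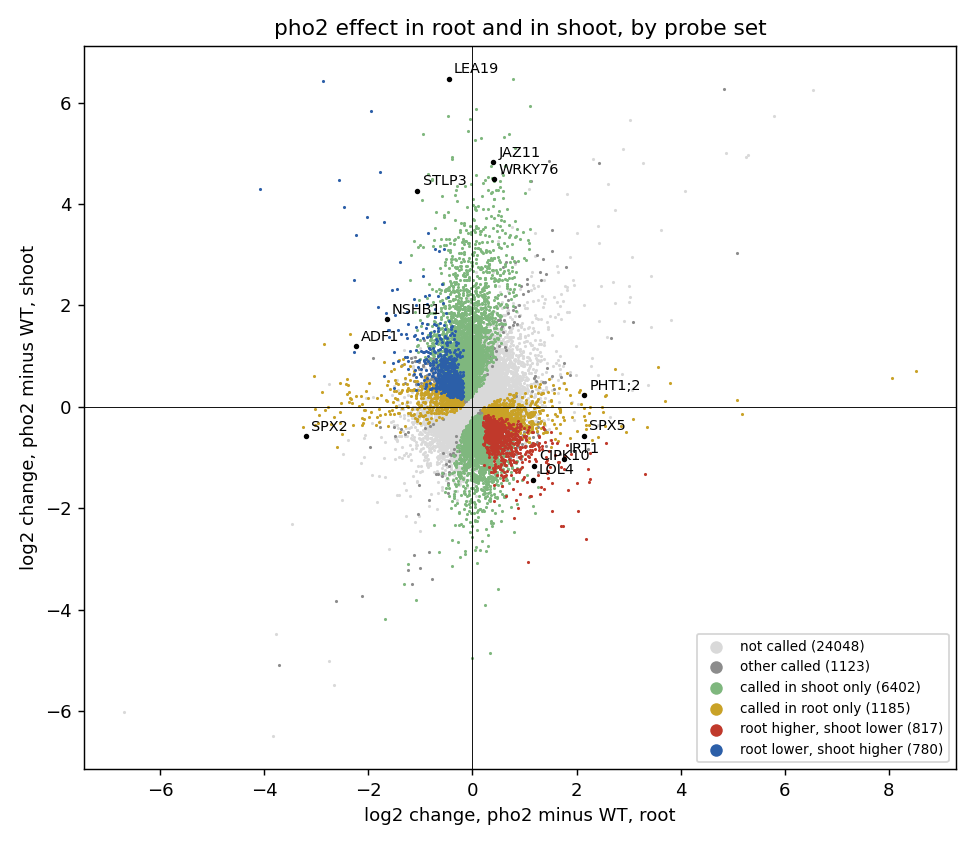
Log2 change of pho2 against WT in root (horizontal) and shoot (vertical) for each of 34355 probe sets, coloured by class, with selected genes named. The 2 classes with opposite changes fill the upper left (780) and lower right (817), and the spread is wider along the shoot axis.

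Both kinds of difference were mostly in probe sets that reached 100 signal units in both organs, in WT or in pho2. Taking a mean of at least 100 signal units in WT or pho2 as present, 8849 of the called probe sets (85.9%) were present in root and shoot, against 61.0% of all tested. A further 738 were present in shoot alone, 566 in root alone and 154 in neither. A transcript that reached 100 units in pho2 alone passes this rule, as LEA19 does in shoot (mean 2.5 in WT and 2126 in pho2). The share thus draws on the values tested, and it does not show that both WT organs express these transcripts. The gi arrays, which took no part in the fit, show which organ had more of these transcripts in gi, without using the values tested. They need not give the place in WT, since the gi effect itself differed between tissues for 4198 probe sets (12.2%). Of the probe sets that were lower in root than in shoot, 43.8% had at least 2-fold more signal in gi root than in gi shoot and 12.4% the reverse, against 26.4% and 17.6% of all tested. Of those that were higher in root, 12.2% favoured root and 29.9% favoured shoot. These shares are a description, with no test.

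IRT1, which carries ferrous iron into root cells, had the highest tissue difference among named genes and reversed. Its signal was 941, 817 and 756 on the WT root arrays and 3169.9, 2776 and 2638 on the pho2 root arrays. In shoot it was 334, 291 and 360.2 in WT and 121, 203 and 146 in pho2. All pho2 arrays lay above WT in root and below WT in shoot, with log2 changes of 1.75 (SE 0.16, limma adjusted p = 3.76e-05) and -1.02 (SE 0.16, limma adjusted p = 0.000312). The tissue difference was 2.77 (SE 0.22, limma adjusted p = 4e-06). LOL4, named for the LSD1-like zinc finger proteins, rose from 795, 767 and 793 to 2476, 1353 and 1714 in root and fell from 3178, 2286 and 2328 to 754, 1335 and 815 in shoot, again without overlap (tissue difference 2.61, SE 0.32, limma adjusted p = 7.21e-05). CIPK10, a kinase of the calcium-sensing CBL and CIPK system, gave 2092, 1967 and 2754 in WT root and 5328, 4943 and 5076 in pho2 root. In shoot it gave 6337, 7019 and 5898 in WT and 2579, 3062 and 2953 in pho2, so that the order of the tissues was turned round. Its tissue difference was 2.34 (SE 0.16, limma adjusted p = 1.27e-06), and the other 3 probe sets of the gene gave 1.97 to 2.22. OrysaZxb was dimmer, with 64, 101 and 70.4 in WT root and 237, 154 and 175 in pho2 root against 759.8, 1176 and 1137 and 531, 544 and 491 in shoot (2.04, limma adjusted p = 0.000197).

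Among genes that went the other way, NSHB1, a non-symbiotic haemoglobin, had 10962, 10819 and 12385 signal units on the WT root arrays and 3143, 3354 and 4454 on the pho2 root arrays. In shoot its signal was 98, 87.7 and 72.2 in WT and 424, 246 and 314 in pho2. Root remained the brighter organ, but the ratio between organs shrank from both sides, with a change of -1.65 in root and 1.73 in shoot (tissue difference -3.38, SE 0.25, limma adjusted p = 2.32e-06). Of 2 other NSHB1 probe sets, the first gave -1.49 in root and 1.82 in shoot, and the second gave -2.12 in root with no call in shoot (0.05, limma adjusted p = 0.886) and a tissue difference of -2.17, so the rise in shoot does not hold on all of them. The actin-depolymerizing factors ADF1 and ADF6, which sever and turn over actin filaments, shared that pattern. ADF1 fell from 1259, 1241 and 1059.5 to 113, 481 and 242 in root and rose from 13, 27.5 and 51.1 to 78.8, 93.6 and 80 in shoot (-3.42, limma adjusted p = 0.0006), with shoot levels that stayed under 100 units. ADF6 fell from 299, 289 and 301 to 93.6, 136 and 130.1 in root, and in shoot rose from 3.22, 5.83 and 6.45 to 28.8, 28.9 and 30.4, all of them dim (-2.32, limma adjusted p = 7.52e-05). Log2 changes carry a pseudocount of 16 units and understate the change of such dim genes. ROMT-17, named for O-methyltransferases, was the one of these that shoot expressed as much as root in WT. It had 111, 169.6 and 271 in WT root, 75.3, 38.4 and 50.6 in pho2 root, 240.3, 216 and 186 in WT shoot and 1046, 1214 and 1132 in pho2 shoot (-3.77, limma adjusted p = 1.48e-05). Another probe set of ROMT-17 gave -1.74 and was called, and the remaining pair gave -0.36 and -0.40 and were not. STLP3 combined a fall in root, from 347, 366 and 274 to 236, 130.4 and 104, with a rise in shoot from 11.5, 18.5 and 12.1 to 813, 364 and 587 (-5.33, SE 0.43, limma adjusted p = 3.92e-06).

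**Figure D3:**
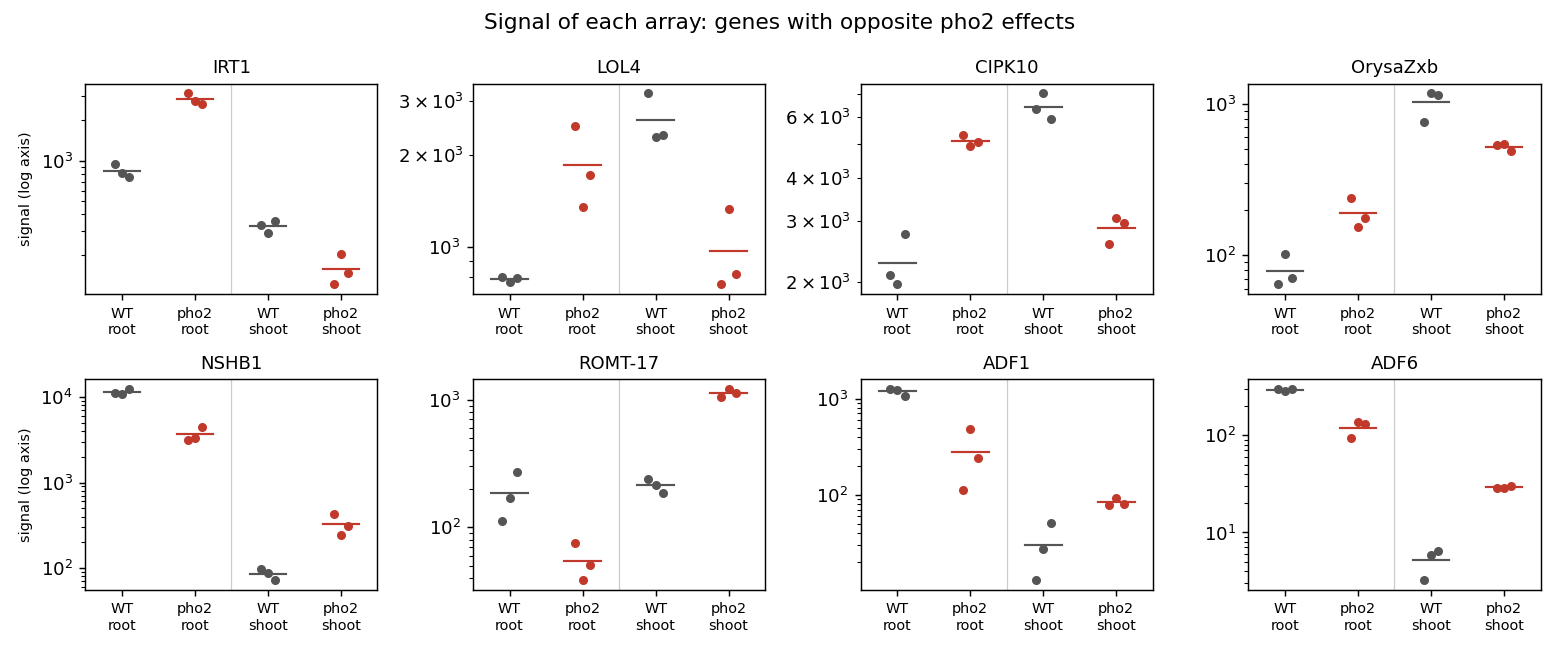
Signal of each array (points, log axis) and group mean (line) for the 8 genes with the strongest opposite pho2 effects by the naming rule. In the upper 4 genes pho2 (red) lies above WT (grey) in root and below it in shoot, and in the lower 4 the order is turned round.

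The 6 genes with the lowest tissue differences all rose in pho2 shoot. In root, STLP3 fell, LEA19, JAZ11 and Cht2 overlapped between pho2 and WT, and Pir7b (-1.13, limma adjusted p = 0.209) and RAB21 (limma adjusted p = 0.123) were not called although their pho2 arrays lay below WT. LEA19, a late embryogenesis abundant protein of the kind that protects cells on drying, gave 1.64, 2.84 and 3.04 signal units in WT shoot and 3297, 489 and 2594 in pho2 shoot. Its root signals overlapped, at 399, 355 and 186 in WT and 192, 201 and 249.6 in pho2, and the tissue difference was -6.92 (SE 0.75, limma adjusted p = 2.99e-05). JAZ11, a jasmonate-responsive repressor of jasmonate signalling, had 43.2, 70.4 and 79.7 in WT shoot and 4056, 960.0 and 2812 in pho2 shoot, the latter spanning and passing the levels of root (1070.1, 1132 and 809.7 in WT and 1639, 1392 and 1004 in pho2). The tissue difference of JAZ11 was -4.43 (SE 0.57, limma adjusted p = 9.89e-05). The chitinase gene Cht2, whose product cuts fungal cell walls, went from 165, 393 and 121 in WT shoot to 7849.5, 4687 and 5282 in pho2 shoot, above its root level of 2295, 2966 and 2127 in WT (-4.40, limma adjusted p = 3.44e-05). Pir7b, an esterase known from the response of rice to Pseudomonas syringae, rose in shoot from 65.7, 74.6 and 103 to 1689, 294 and 1469 and was not called in root, where WT arrays at 1353, 2794 and 1160.5 lay above pho2 arrays at 692, 1004 and 581 (-4.40, limma adjusted p = 0.000736). RAB21, a dehydrin induced by abscisic acid, reached 730.3, 257 and 845 in pho2 shoot from 32.9, 53.3 and 50.4 in WT, and was dim in root throughout, at 2.77 to 40.8 units (-4.21, limma adjusted p = 0.00011). In all 6 of these genes pho2 shoot replicate 2 had the lowest of the pho2 signals, still above all WT shoot arrays. The same array was the lowest of the 3 for 21 of the 35 named genes that rose in pho2 shoot, against 8 for replicate 1 and 6 for replicate 3. Without it the call of the tissue difference did not change for any named gene.

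At the other end, 3 named genes besides IRT1, LOL4 and the Pi gene SPX5 had tissue differences above 2.5. BURP2, a BURP-domain protein, fell in shoot from 5658, 6365 and 7123 to 577, 985 and 886, while its root arrays overlapped at 80.3 to 420.2 units (2.73, SE 0.56, limma adjusted p = 0.00249). Another BURP2 probe set fell in shoot too (-2.16, limma adjusted p = 0.0265), with a tissue difference of 1.14 that was not called (limma adjusted p = 0.422). PBZ1, a pathogenesis-related protein of the PR10 class, fell in shoot from 1094, 1690.1 and 1178 to 295, 179 and 299.8, and its root arrays spread from 1126 to 6798 (2.69, SE 0.74, limma adjusted p = 0.0157). GLO1, a glycolate oxidase of photorespiration, owed its value of 2.56 (limma adjusted p = 0.00557) to a rise in root from 13.2, 69.5 and 68.9 to 119, 328 and 422. Those root levels lie far below the 19119, 18217 and 19386 of WT shoot, and a second probe set of GLO1 gave 0.01 (limma adjusted p = 0.978). Beside that rise, the summed signal of the 6 shoot markers, of which GLO1 is 1, was 6831 to 12592 in pho2 root and 6654 to 7359 in WT root. Among them CAB2R lay at 6298 to 11538 in pho2 root and 6083 to 6884 in WT root, and PSAG at 403 to 491 and 322 to 442. RBCS lay at 6.88 to 163 and 57.1 to 75.9, SWEET1B at 2.52 to 3.87 and 2.64 to 3.88, and RBCS1 at 1.02 to 18.1 and 0.535 to 9.41. Their part in the rise of GLO1 was not tested.

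Among 11 genes of Pi transport on the array, 7 were tested, 3 had a higher and 1 a lower tissue difference, and 3 were not called. The share called was 57.1%, against 44.1% of the 2274 named genes tested (1 probe set each). The median was 0.24 in this list, against 0.01 over all probe sets, and -0.45 with added-control scaling. PHT1;2, a Pi transporter induced by Pi shortage, gave 3259, 2349 and 2408 in WT root and 11385, 12475 and 11521 in pho2 root. Its shoot arrays overlapped at 39.2 to 93.1 units, and the tissue difference was 1.92 (SE 0.29, limma adjusted p = 0.000315). PHT1;1, a transporter active at sufficient Pi, reversed: it rose from 2337, 2218 and 2406 to 5116, 4461 and 4361 in root and fell from 834, 954 and 860.0 to 798, 568 and 631 in shoot (1.40, SE 0.16, limma adjusted p = 3.95e-05). A dimmer second probe set for PHT1;1 went the other way, with -0.85 in root, 0.20 in shoot and a tissue difference of -1.05 (limma adjusted p = 0.0247), so the direction of PHT1;1 rests on the brighter one. PHT1;4 rose from 1508, 1214 and 1266 to 3540.3, 2885 and 2438 in root with overlapping shoot arrays (1.40, limma adjusted p = 0.000268), on a probe set whose type may also bind related transcripts. PHT1;8, measured on a probe set of the same type, was the exception, a transporter of high affinity that rose in shoot, from 339.5, 836 and 678 to 2085, 1461 and 1642, while root arrays overlapped (-1.30, SE 0.36, limma adjusted p = 0.0157). Its second probe set gave -1.35 (limma adjusted p = 0.00192). PHO1;2, the exporter that loads Pi into the xylem, gave -0.03 (limma adjusted p = 0.882), PHO1;3 0.24 (limma adjusted p = 0.699) and PHT1;3 -0.41 (limma adjusted p = 0.645).

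Of 9 Pi signalling genes on the array, 8 were tested, with 4 higher, 1 lower and 3 not called for the tissue difference. The share called was 62.5%, and the median was 0.58, or -0.10 with added-control scaling. The SPX genes took 3 courses. SPX1 rose from 1096, 907 and 1027 to 3382, 2015 and 2084 in root and fell from 1170.3, 978 and 1289 to 719, 625 and 660.2 in shoot (2.01, SE 0.24, limma adjusted p = 6.15e-05). SPX5 rose in root from 63.1, 36 and 45 to 303, 218 and 273, and was dim in shoot at 1.93 to 42.4 units (2.71, SE 0.52, limma adjusted p = 0.00177). SPX2 fell in root from 1659, 1387 and 1242 to 236, 93.2 and 122, far more than in shoot, where it went from 1159.9, 1179 and 1169 to 727, 731 and 888. The shoot change of SPX2 was not called (-0.58, limma adjusted p = 0.075), although its arrays did not overlap, and the tissue difference was -2.62 (SE 0.33, limma adjusted p = 8.09e-05). SPX4, a repressor that holds PHR2 in the cytoplasm, and PHR2, the central activator of Pi starvation genes, fell in shoot by 0.47 and 0.46 on the log2 scale, with tissue differences of 0.58 and 0.58 (limma adjusted p = 0.0121 and 0.00184). Both turned to -0.10 with added-control scaling. A second probe set gave -0.48 for SPX4 (limma adjusted p = 0.137) and 0.27 for PHR2 (limma adjusted p = 0.252). PHR1 (0.23), PHR3 (1.13) and the SUMO ligase SIZ1 (0.27) were not called. The list of genes known to rise when Pi is scarce, which shares members with both lists above, held 5 higher and 2 lower among 11 tested (63.6% called).

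**Figure D4:**
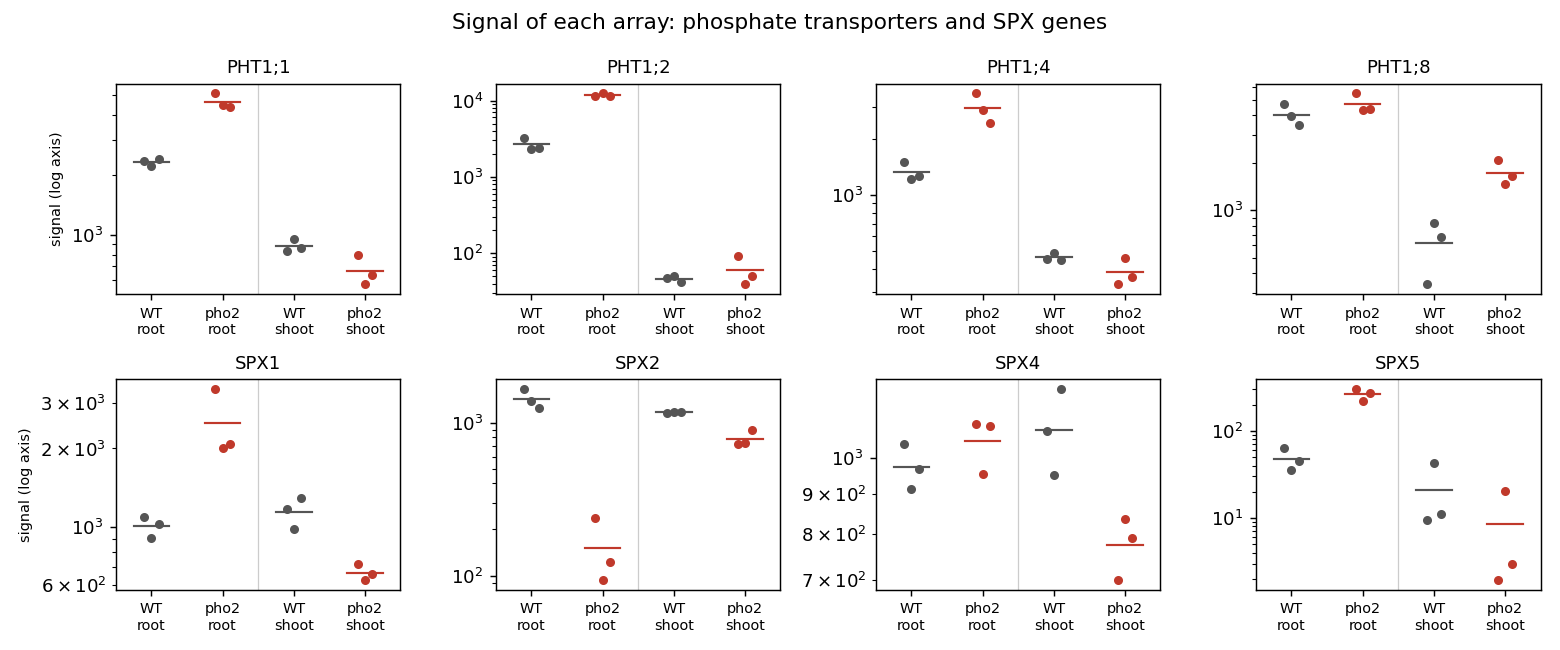
Signal of each array (points, log axis) and group mean (line) for 4 Pi transporters and 4 SPX genes. PHT1;2, PHT1;4 and SPX5 separate pho2 from WT in root alone. SPX1 and PHT1;1 are higher in pho2 root and lower in pho2 shoot on the deposited scale, and PHT1;8 is higher in pho2 shoot. With added-control scaling the fall in shoot turns into a rise for PHT1;1 and shrinks for SPX1.

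Beside these, the effect on other nutrient genes differed by organ in both directions. The share of genes called is read here against 44.1%, the share of the 2274 named genes tested (1 probe set each) that were called. For the pho2 effect in root that share was 16.8%, and for the effect in shoot 48.9%, each counted whatever the other tissue did. Of 17 nitrogen genes, 2 were higher and 5 lower (41.2% called). The ammonium transporter AMT1 fell in root from 7054, 6240.4 and 6436 to 2928, 3977 and 3866, whereas its shoot arrays were higher in pho2 (5104, 4617 and 5197 in WT and 6297, 5727 and 6097 in pho2), a change that was not called (0.28, limma adjusted p = 0.0526). Its tissue difference was -1.16 (SE 0.15, limma adjusted p = 8.13e-05), but another AMT1 probe set was not called in root (-0.02, limma adjusted p = 0.975) or for the tissue difference (-0.32, limma adjusted p = 0.535). The cytosolic glutamine synthetases parted: GLN1;1 rose in shoot by 0.51 and GLN1;2 fell there by 0.52 on the log2 scale, with tissue differences of -0.69 and 0.44 (limma adjusted p = 0.000254 and 0.00266), the latter -0.24 with added-control scaling.

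More iron and other metal genes fell than rose in pho2 shoot on the deposited scale, and their medians turn with added-control scaling. Of 25 iron acquisition genes, 9 were higher and 2 lower in tissue difference (44% called, median 0.49, or -0.19 with added-control scaling). In shoot 8 fell and 4 rose, whatever root did. Of 27 metal transporters, 9 were higher and 2 lower (40.7% called, median 0.37, or -0.31), and 10 fell and 3 rose in shoot. NRAMP4, of the NRAMP metal transporter family, fell in shoot from 4712, 3695 and 4226 to 1077, 1950.4 and 1273 (1.85, limma adjusted p = 9.25e-05). MTP4, of the cation diffusion facilitators, fell there from 607, 507 and 507 to 101, 126 and 115 and stayed at 22.6 to 25.6 units in root (2.12, limma adjusted p = 5.21e-05). COPT1, a copper transporter, rose slightly in root, from 17018, 15728 and 18193 to 19935, 19816 and 19619, and fell in shoot from 11229, 10214 and 10253 to 4691, 4612 and 4935 (1.37, SE 0.0868, limma adjusted p = 7.35e-07). YSL6, of the yellow stripe-like metal chelate transporters, fell in shoot by 0.62 on the log2 scale (0.77, limma adjusted p = 0.000613), a call that ended with added-control scaling (0.644).

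Of 21 genes of potassium and sodium transport, 5 were higher and 4 lower (42.9% called, near the share of all named genes, median -0.01), with AKT1, the inward potassium channel of the root, rising from 2759, 2397 and 2231 to 3154, 3451 and 3509 in root and falling from 974, 834 and 1004 to 534, 513 and 467 in shoot (1.32, limma adjusted p = 2.41e-05). HAK11, of the HAK potassium transporters, did the same (0.53 in root and -1.22 in shoot, 1.75, limma adjusted p = 8.86e-06), and HAK25 fell in shoot (0.94, limma adjusted p = 0.00104, or 0.263 with added-control scaling). Of 23 aquaporins, 7 were higher and 6 lower (56.5% called, median -0.03). NIP2;1, the silicon influx channel Lsi1 of roots, was not called in root and fell in shoot from 2303, 2056 and 2136 to 901, 874 and 892 (1.40, SE 0.0992, limma adjusted p = 1.58e-06). The plasma membrane aquaporins PIP2;4 and PIP1;3 rose in shoot instead. PIP2;4 went from 299.9, 639.7 and 484 to 3774, 2165 and 3336 there, with 11934 to 14267 in root (-2.81, SE 0.32, limma adjusted p = 4.49e-05), and PIP1;3 gave -1.87 (limma adjusted p = 6.17e-05).

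Ribosomal protein genes and genes of protein folding were more often higher than lower in pho2 shoot, and not in pho2 root. Of 24 ribosomal protein genes, 19 (79.2%) had a lower and 0 a higher tissue difference, and all 24 values were negative (median -0.52). In pho2 root 15 fell and 0 rose, in pho2 shoot 18 rose and 0 fell, and 13 were called in both tissues with opposite signs. The changes were small. RPS4 went from 13632, 14576 and 14007 to 11902, 12285 and 11216 in root and from 7817, 7901 and 7698 to 10404, 10542 and 10551 in shoot, without overlap in either (-0.68, SE 0.0702, limma adjusted p = 2.08e-05). RPL9 gave -0.66 (limma adjusted p = 2.68e-05) and RPS10-1 -1.02 (limma adjusted p = 2.09e-05). Names do not tell cytosolic from plastid ribosomes here. With added-control scaling 24 of 24 were lower, but that scale shifts all values down. Of its 15775 calls over all probe sets, 15059 were lower. Of 14 genes of protein folding in the endoplasmic reticulum, 8 were lower and 0 higher (57.1% called, median -0.57). In shoot 8 rose and 1 fell, and in root 0 rose and 1 fell. Examples are PDIL1-1, a protein disulfide isomerase that went from 7758, 8189 and 7761 to 13292, 11643 and 11892 in shoot with overlapping root arrays (-0.71, limma adjusted p = 5.94e-05), CRO1, named for calreticulin (-0.72, limma adjusted p = 0.000118), and PDIL2-2 (-0.66, limma adjusted p = 0.000791).

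Cell wall genes had the widest gap of the larger lists. Of 49 tested, 25 (51%) had a lower and 0 a higher tissue difference, with a median of -0.83. In shoot 28 rose and 2 fell, in root 0 rose and 6 fell. CESA1, a cellulose synthase subunit of the primary wall, was at 10095, 9386 and 10765 in WT root and 9552, 9071 and 8749.8 in pho2 root. In shoot it went from 264, 337 and 335 to 994, 1339 and 1269, so that pho2 shoot remained far below root (-2.03, SE 0.16, limma adjusted p = 3.88e-06). A dimmer CESA1 probe set was not called in shoot (0.04, limma adjusted p = 0.95) or for the tissue difference (-0.54, limma adjusted p = 0.457). CESA3 rose from 754, 945 and 771 to 2205, 2764 and 3084 in shoot (-1.82, limma adjusted p = 6.33e-06) and CESA5 from 203, 255 and 216 to 555, 489 and 470.3 (-1.32, limma adjusted p = 1.99e-05). The subunits of the secondary wall were lower as well, CESA4 at -2.57, CESA7 at -2.17 and CESA9 at -2.67. CESA1 and CESA3 are far brighter in root than in shoot, and beside their rise some root markers were higher in shoot too. Lsi2 lay at 2.75 to 11.2 units in pho2 shoot against 1.97 to 2.65 in WT shoot. CASP1 lay at 17.0 to 75.1 against 3.91 to 33.6 and TIP2 at 48.3 to 569 against 23.0 to 56.8, both with overlap. NIP2;1 and IRT1 were lower in pho2 shoot without overlap, the other 3 markers overlapped, and the sum of all 8, most of it NIP2;1 in WT shoot, was lower. The part of root cells or root RNA in these rises was not tested.

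**Figure D5:**
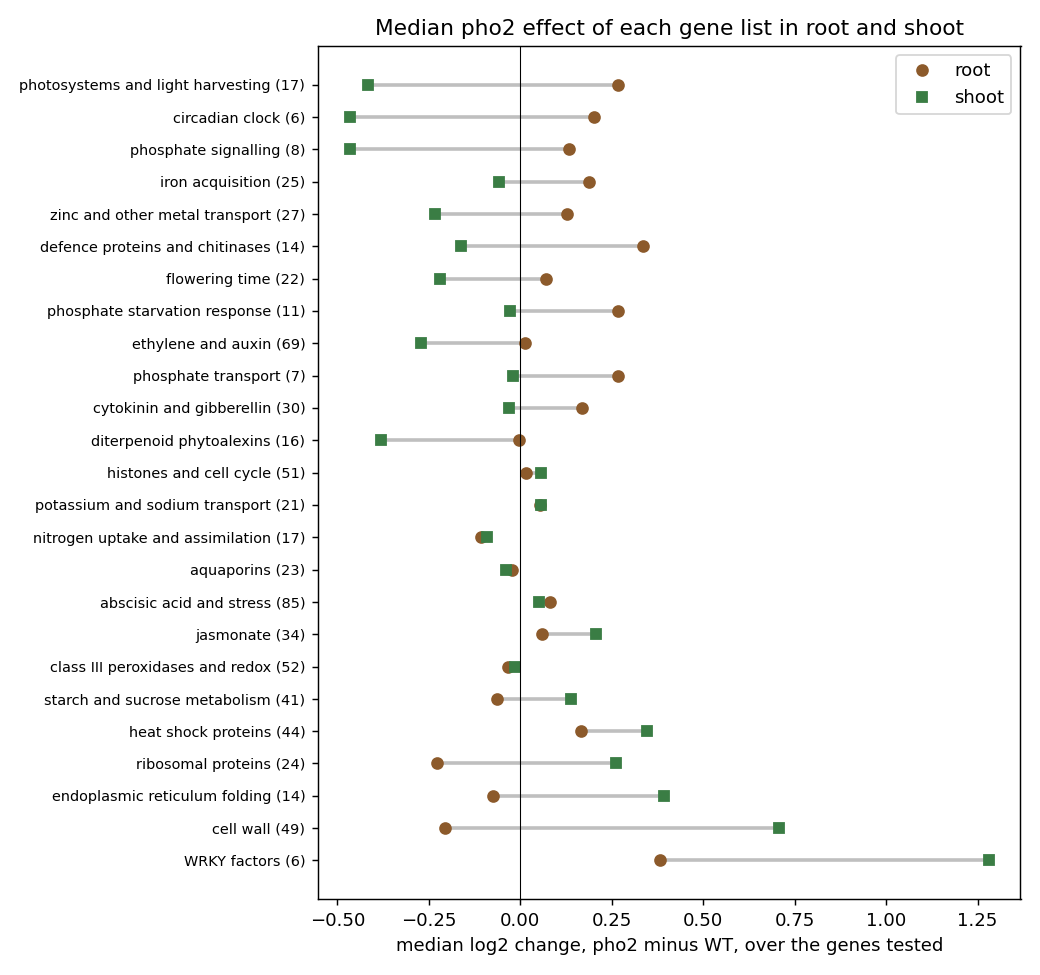
Median log2 change of pho2 against WT in root (circles) and shoot (squares) for each gene list, with the number of genes tested in brackets, ordered by the median tissue difference. The WRKY, cell wall, endoplasmic reticulum folding and ribosomal lists lie to the right in shoot, and the clock, photosystem and Pi signalling lists to the left in shoot on the deposited scale, but to the right of 0 with added-control scaling. The shoot median of the photosystem list was -0.42 on the deposited scale and -0.04 after quantile normalization.

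Several of the largest differences were in hormone, stress and defence genes. Of 34 jasmonate genes, 10 were higher and 11 lower (61.8% called). The repressors JAZ5 (-3.25), JAZ6 (-0.74), JAZ7 (-1.04), JAZ8 (-1.40), JAZ10 (-1.88), JAZ11 (-4.43), JAZ12 (-2.65) and JAZ13 (-2.08) had lower tissue differences, with JAZ1 (0.54) and JAZ4 (0.39) higher on the deposited scale and negative with added-control scaling. JAZ3 (0.02) and JAZ9 (-1.12) were not called. The receptor COI1B rose slightly in root, from 3455, 3420.0 and 3797 to 3942, 4602 and 4605, and fell in shoot from 7622, 7131 and 8072 to 4113, 4426 and 3923 (1.17, SE 0.11, limma adjusted p = 1.2e-05). JAZ7 rose in both tissues, from 8647, 8649.7 and 10346 to 11972, 11911 and 10392 in root and from 2892, 3297 and 3275 to 8834, 7872 and 7548 in shoot (-1.04, limma adjusted p = 7.5e-05). The lipoxygenases, which start jasmonate synthesis, were mixed, with LOX3 at 1.61, LOX5 at -1.46 and LOX2 not called at -0.20.

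Of 6 WRKY factors, 2 were lower and 0 higher (33.3% called). WRKY76, a transcription factor of defence, was at 91.8, 151 and 119 in WT shoot and 3468, 2766 and 2848 in pho2 shoot, against 2883, 2426 and 2527 in WT root (-4.09, SE 0.25, limma adjusted p = 5.23e-07). WRKY62 rose in shoot from 22.2, 60.4 and 69.8 to 742, 555 and 649.8 (-2.67, limma adjusted p = 0.000136). Of 14 defence proteins and chitinases, 5 were higher and 3 lower (57.1% called). The 3 lower ones are chitinases that rose in shoot: Cht2, CH16 (from 213, 595 and 519.5 to 12421, 5054 and 7699, -3.87, limma adjusted p = 9.4e-05) and CH6 (from 5.07, 64.4 and 87.6 to 1255, 576 and 848, -3.90, limma adjusted p = 0.000706). Of 16 genes of diterpenoid phytoalexins, the antimicrobial compounds of rice, 3 were higher and 0 lower (18.8% called, against 44.1% of named genes). CYP99A3 rose in root from 1081, 1350.3 and 1488 to 2028, 2192 and 2388 and fell in shoot from 89.8, 91.2 and 97.8 to 60.7, 45.8 and 69.9 (1.31, limma adjusted p = 0.000508, or 0.063 with added-control scaling). CYP76M5 gave 1.92 at signals under 100 units (limma adjusted p = 0.00774), and MAS, the momilactone A synthase, 1.87 (limma adjusted p = 0.0128, or 0.0673).

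Of 85 genes of abscisic acid and stress, 16 were higher and 15 lower (36.5% called, median -0.03). Besides LEA19 and RAB21, the kinase SAPK7 of the SnRK2 family rose in shoot from 83.2, 125 and 90.5 to 317, 270.0 and 249 (-1.71, SE 0.20, limma adjusted p = 4.94e-05), as did the bZIP factor ABF2, from 1482, 1401 and 1538 to 2869.6, 2180.0 and 2493 (-1.04, limma adjusted p = 6.17e-05). Neither was called in root, where pho2 arrays lay below WT arrays in both. Of 44 heat shock proteins and factors, 8 were higher and 15 lower (52.3% called). HSF6, a heat shock factor, reversed, from 823, 919 and 786 to 598, 480.4 and 450.4 in root and from 183, 322 and 224 to 2576, 1968 and 2010.2 in shoot (-3.83, SE 0.25, limma adjusted p = 9.27e-07), though another HSF6 probe set gave 0.28 (limma adjusted p = 0.409). The small chaperone HSP26.2 gave -2.14 (limma adjusted p = 7.51e-06) and HSF12 0.74 (limma adjusted p = 0.000173, or 0.802 with added-control scaling).

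Of 69 genes of ethylene and auxin, 19 were higher and 10 lower (42% called), and in shoot 25 fell and 9 rose (median tissue difference 0.27, or -0.41 with added-control scaling). EIL1, a factor of ethylene signalling, fell in shoot from 7703, 7761 and 6984 to 2412, 1806 and 1816 and overlapped in root at 427 to 721 (2.18, SE 0.23, limma adjusted p = 2.49e-05). ARF9, an auxin response factor, was not called in root and fell in shoot from 2801, 2702 and 3028 to 1186, 1376 and 1389.8 (1.10, limma adjusted p = 8.5e-06), and arf1, also named for that family, fell in shoot from 2774, 2763 and 2754 to 1128, 1632 and 1433 (1.34, limma adjusted p = 9.36e-05). Of 30 cytokinin and gibberellin genes, 8 were higher and 4 lower (40% called, median 0.22, or -0.46). CKX11, a cytokinin oxidase that breaks the hormone down, reversed: it went from 1971, 1941 and 2170.5 to 4294, 3733 and 3457 in root and from 2607, 2285 and 2798 to 1183, 1087 and 978 in shoot (2.14, SE 0.14, limma adjusted p = 1.11e-06). A second CKX11 probe set was not called in root (0.26, limma adjusted p = 0.803), in shoot (-0.96, limma adjusted p = 0.122) or for the tissue difference (1.23, limma adjusted p = 0.174). LOGL9, of the cytokinin-activating LOG family, gave 1.82 (limma adjusted p = 0.000115) and the response regulator ORR4 0.78 (limma adjusted p = 0.000101, or 0.668 with added-control scaling).

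All 6 clock genes tested were called, 5 higher and 1 lower, on the deposited scale (median 0.71, or 0.03 with added-control scaling, where 0 were higher and 1 was lower). PRR95, a pseudo-response regulator, rose from 1501, 1352 and 1577 to 2215, 2139 and 2235 in root and fell from 17896, 15934 and 16604 to 11204, 12893 and 12749.8 in shoot (1.02, SE 0.11, limma adjusted p = 2.09e-05, or 0.0808). LHY, a morning MYB factor, and PRR37 reversed likewise, with 0.78 and 0.72 (limma adjusted p = 3.51e-05 and 0.000159, or 0.604 and 0.841). GI itself went from 7236, 7007 and 7393 to 8200.0, 8030.1 and 7920.1 in root and from 11520.5, 9868 and 10889 to 6835, 8088 and 7142 in shoot, without overlap in either tissue, although the root change was not called (0.16, limma adjusted p = 0.19). Its tissue difference was 0.71 (SE 0.10, limma adjusted p = 0.000211), and the call ended in a fit of all 18 arrays (0.117), whose spread includes the gi arrays, and with added-control scaling (0.9). PRR1, also a pseudo-response regulator, was the member that rose in shoot (0.67) and had a lower tissue difference (-0.58). The hour of harvest is not given for any group, and its part was not tested.

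Of 22 flowering genes, 7 were higher and 0 lower (31.8% called, median 0.33, or -0.35 with added-control scaling). MADS26, a MADS-box factor, rose from 1057, 1003 and 1101 to 1551, 1751 and 1795 in root and fell from 391, 525 and 407 to 216, 228 and 206 in shoot (1.64, SE 0.16, limma adjusted p = 1.49e-05). HO1, a haem oxygenase that makes the phytochrome chromophore, gave 0.998 (limma adjusted p = 4.01e-05, or 0.114 with added-control scaling). Of 17 genes of photosystems, light harvesting and photorespiration, 5 were higher and 3 lower (47.1% called). These counts were 2 and 3 after quantile normalization, and 1 and 5 with added-control scaling. PSAG, a subunit of photosystem I, fell in shoot from 12025, 10856 and 12411 to 7508, 9105 and 7693 (0.81, limma adjusted p = 0.0027, or 0.644), and CAB2R gave 0.86 (limma adjusted p = 0.0172, or 0.158 after quantile normalization and 0.599 with added-control scaling). GLO3, another glycolate oxidase, is bright in root, and rose in shoot from 147, 82.4 and 158 to 989, 528 and 453 (-2.49, limma adjusted p = 0.000252).

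Of 41 genes of starch and sucrose metabolism, 3 were higher and 12 lower (36.6% called, median -0.25). SWEET4, a sugar transporter, reversed: it fell in root from 3997, 4045 and 3076 to 2421, 2408 and 2424, and in shoot it rose from 4379.8, 4989 and 5571 to 8262, 8422 and 9117 (-1.39, SE 0.15, limma adjusted p = 2.72e-05). The trehalose phosphate phosphatases TPP7 and TPP9 parted in shoot. TPP7 fell from 4920.1, 4659 and 4753 to 1930.3, 2089.8 and 2102 (1.22, limma adjusted p = 2.46e-05) and TPP9 rose from 133, 173 and 145 to 469, 498 and 370.2 (-1.52, limma adjusted p = 0.000133). Of 51 histone and cell cycle genes, 15 were higher and 4 lower (37.3% called), with the cyclin-dependent kinases CDKG-2 at 0.93 and CDKF-3 at 1.02 (limma adjusted p = 2.63e-05 and 6.14e-05, or 0.256 and 0.158 with added-control scaling) and the replication protein MCM9 at 1.47 (limma adjusted p = 7.44e-05). Of 52 redox genes, 11 were higher and 16 lower (51.9% called). Trx03, a thioredoxin, rose in root from 149, 142 and 173 to 220.2, 265 and 278 and fell in shoot from 29865, 30365 and 30079.6 to 18054, 21461 and 20149.6 (1.27, limma adjusted p = 2.82e-05). Trxh1, a cytosolic thioredoxin, and CXXS1 gave 0.85 and 1.02 (limma adjusted p = 3.53e-05 and 2.3e-05, or 0.426 and 0.114 with added-control scaling).

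The pho2 tissue difference was also set against that of gi, in a fit of all 18 arrays where the WT arrays cancel. It was called for 5672 of 34355 probe sets (16.5%), 2392 higher (6.96%) and 3280 lower (9.55%). Of 15 Pi transport and signalling genes, 7 were called in it and 8 were not. In gi root PHT1;2 had 2588, 2202 and 1798 signal units, the first within the range of the WT arrays and the others below it, and the pho2 value less the gi value was 2.33 (limma adjusted p = 4.44e-05). The same contrast was 2.19 for PHT1;4 (limma adjusted p = 1.13e-05), 0.68 for PHT1;1 (limma adjusted p = 0.0207), 1.48 for SPX1 (limma adjusted p = 0.000355) and -2.79 for SPX2 (limma adjusted p = 1.3e-05). SPX5 (3.43, limma adjusted p = 0.000187) and PHR2 (0.55, limma adjusted p = 0.0028) were also called. PHT1;8 (-0.13, limma adjusted p = 0.873), PHT1;3, PHO1;2, PHO1;3, SPX4, PHR1, PHR3 and SIZ1 were not, with adjusted p from 0.255 to 0.939. The ribosomal protein RPS10-1 (-1.05, limma adjusted p = 1.13e-05) and the aquaporin PIP1;3 (-2.29, limma adjusted p = 0.000242) were called too. EIL1 had 6021, 6752 and 10519.5 in gi shoot, on both sides of the WT arrays, and differed by 2.23 (limma adjusted p = 4.8e-05).

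For other genes the 2 mutants were not distinguished. IRT1 signals were 2455, 2905 and 1839 in gi root and 127, 193 and 185 in gi shoot, giving a pho2 value less gi of 0.38 (SE 0.27, limma adjusted p = 0.397). In gi shoot CESA1 reached 2187, 2676 and 724 (0.31, SE 0.43, limma adjusted p = 0.705), and CESA3 4591, 5337 and 2037 (0.11, SE 0.33, limma adjusted p = 0.876), with gi shoot replicate 3 the lowest in both. JAZ7 (0.19, SE 0.19), SAPK7 (-0.17, SE 0.18), AKT1 (-0.05, SE 0.13), ADF6 (-0.30, SE 0.49), GLO1 (0.14, SE 0.68) and BURP2 (0.37, SE 0.54) were likewise not called, which does not show that the mutants act alike. LHY is the clear opposite case: it was at 523, 521 and 461 in gi root against 3377, 3439 and 3080.0 in WT root, and pho2 less gi was 2.41 (limma adjusted p = 1.88e-10).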

How the data were processed

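Expression was measured on 18 Affymetrix rice arrays, 3 for each of 6 groups. The authors deposited 1 signal intensity per probe set, computed with MAS5 per the submitters' processing notes (its version is not given in the sources used here), and the deposited intensity was used as given. Values were taken as log2(signal + 16). Of 57381 probe sets, 123 Affymetrix controls and those with a mean under the 40th percentile were left out, and 34355 were tested with limma 3.58.1 in R 4.3.3 (lmFit, then eBayes with an intensity trend, 4 group means, two-sided, Benjamini-Hochberg over all tested, called at 0.05). The script was also tested on simulated data.

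Probe sets were named from the platform annotation (22436 with 1 gene, of which 3192 carry a gene name, 95 with several genes and 34850 with none). Lists count the brightest probe set of each gene. Of 128 list genes with more than 1 probe set tested, 4 had probe sets called in opposite directions for the tissue difference. They are HSP18.0 (1.33, -0.384 and -1.4), gst2 (-0.778 and 0.765), GRXS11 (0.414 and -0.507) and PHT1;1. The genes named are the 6 highest and 6 lowest tissue differences with a group mean of at least 100 units, the 4 strongest reversals each way, up to 3 members of each list with the smallest adjusted p, all Pi transport and signalling genes, and GI. Other genes given in the jasmonate, clock and cell wall lists (JAZ and LOX genes, PRR1, CESA4, CESA7 and CESA9) were chosen after their values were seen. The members and lists were chosen with earlier results of these data known. Replicates correlated at 0.9675 to 0.9867, no 2 columns were identical, and precision is limited by the few arrays per group. Same-numbered samples deviated together weakly at most (correlations of -0.0857 to 0.0639). Pseudocount, normalization, filter, samples in the fit, array weights, trend, replicate blocks and each array left out were tried as alternatives, and scaling on added controls was added after seeing the data.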

Additional observations from a re-analysis of the deposited data

Results flagged for a closer look

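The count of 1597 opposite pho2 effects is listed because root and shoot responded to the same contrast with opposite signs, each called by limma. The tissue difference of pho2 also differed from that of gi, by a test of the difference itself, for 5672 probe sets. Among genes named for their size or reversal, pho2 less gi was positive for SPX5 (3.43), PBZ1 (2.93), OrysaZxb (2.09), CIPK10 (1.5) and LOL4 (1.41). It was negative for LEA19 (-5.62), RAB21 (-4.03), STLP3 (-3.96), Cht2 (-3.84), Pir7b (-2.41), JAZ11 (-2.38) and NSHB1 (-1.94). These genes were chosen by their pho2 values, and the contrast uses the same pho2 arrays, so it is no independent check of them. PBZ1 varied from 2505 to 12396 units between gi root arrays, and RAB21 from 8.22 to 342 between gi shoot arrays.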

How the results depend on the processing

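Of 92 named genes 86 were called, and 84 of them were called in each of 23 other settings, the exceptions being CAB2R after quantile normalization (adjusted p = 0.158, limma) and GI in the fit of all 18 arrays (0.117). All 86 kept their sign in those settings. Scaling on added RNA controls, chosen after seeing the data, gave 15775 calls for the tissue difference (716 higher, 15059 lower, 9648 at least 2-fold), 73 and 1195 opposite effects (higher and lower in root), 2340 calls in root and 19120 in shoot. It reversed the sign of PHR2 (-0.101), SPX4 (-0.102), SIZ1 (-0.414) and GLN1;2 (-0.241). The calls of PHR2, SPX4 and GLN1;2 ended with this shift of all values, as did those of 17 other named genes. SIZ1, not called on the deposited scale, was called on this one (limma adjusted p = 0.038).

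Median centring gave 821 opposite effects (376 higher and 445 lower in root), 2441 calls in root and 3416 for pho2 less gi. Without an intensity trend there were 962 opposite effects (537 and 425), and the cause of these changes was not tested. Leaving out 1 array at a time gave 9010 to 10524 calls for the tissue difference (4271 to 5103 higher, 4578 to 5421 lower, 3949 to 4552 at least 2-fold), 2349 to 4383 in root, 9722 to 11326 in shoot and 4454 to 6110 for pho2 less gi. It gave 946 to 1746 opposite effects, 533 to 870 of them higher in root and 413 to 876 lower in root. The low ends for root and for opposite effects came without WT root replicate 2. Opposite effects lower in root numbered 482, 510 and 480 without WT root replicate 1, pho2 root replicate 1 and pho2 root replicate 3.

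The replicate numbers are shared between groups. Same-numbered samples correlated at -0.0857 to 0.0639 in their deviations, and samples with other numbers at -0.0987 to 0.0885. Root and shoot of the same genotype and number gave weak positive values, from 0.00287 to 0.0639. Whether such pairs share plants or a batch was not tested. With the replicate number as a block, 9909 tissue differences and 1416 opposite effects were called, and with root and shoot of a number as a random block 10676 and 1601. Dim probe sets, under about 100 units, have the least precise changes.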
